A study of Mus musculus with 24 samples.

Results

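Of the 19938 genes measured by a probe with 1 symbol, 10 known markers of the choroid plexus are described here across all 24 arrays of mouse hippocampus. The genes were chosen by name, not by measured values: Ttr, Kl, Igfbp2, Cldn1, Ecrg4, Folr1, Clic6, Aqp1, Otx2 and Slc4a5. Each was measured by 1 probe, and all 10 were kept, since no filter on low values was applied. All mice were male, 8 to 9 weeks old and of C57BL/6J-129sv mixed stock, and the arrays form 4 groups of 6: FoxO6 +/+ (WT) basal, FoxO6 -/- (mutant, labelled FoxO6 null) basal, WT after learning and mutant after learning. FoxO6 is a forkhead transcription factor. Basal mice were kept in single housing for at least 3 days. Learning mice met a pair of new, identical objects for 10 min and were killed 60 min later, having been handled daily and shown the empty arena 24 h before. An acclimatization of 60 min is also given for learning mice only, and single housing is given for basal mice only. Handling, acclimatization, the arena and the objects, and housing as labelled, differ together between the states and cannot be told apart. No batch or scan date is given in the labels. The labels do not say how the mutant allele was made. Replicates are labelled biological, but not as separate animals, so p-values measure only the spread between these samples, which may be technical in part.

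The choroid plexus is a fold of secretory epithelium around leaky capillaries that hangs in the brain ventricles and makes cerebrospinal fluid. In the lateral ventricle it is attached along the fimbria, at the edge of the hippocampus. Its epithelium is known for very high production of transthyretin (Ttr), for ion and water transport and for a barrier of tight junctions, and Otx2 is a transcription factor needed to form and keep it. The labels do not say how much choroid plexus came with each dissected hippocampus. In these bulk samples fewer choroid plexus cells and less RNA per such cell cannot be told apart.

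As checks on the labels, Foxo6 lay below every WT array in every mutant array of the same state (6.30 ± 0.16 against 7.03 ± 0.20 at basal and 6.24 ± 0.15 against 6.87 ± 0.15 after learning, log2, mean ± SD, n = 6). Levels are RMA signals on the log2 scale, in which a difference of 1 is a doubling. The mean of 12 markers of hippocampal pyramidal and granule cells lay between 9.20 and 9.46 in all 24 arrays. This mean averages markers that changed in both directions by limma: Fibcd1 was called lower in the mutant at basal (−0.34, adjusted p = 0.00563) and after learning (−0.35, adjusted p = 0.00226), and after learning in WT Mpped1 fell by 0.43 and Calb1 rose by 0.40. The number of arrays limits the precision.

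Because the genes vary together, the windows around their start sites were searched for a motif bound by Otx2 (TAATCC, on either strand) and a forkhead motif (GTAAACA, on either strand). RefSeq promoter windows (build GRCm38.p6, 250 bases before to 50 after a start) were at hand for 7 of the genes, with 11 windows in all. For Ttr, Clic6 and Folr1 no window was at hand, so these genes were not searched. TAATCC was found in 1 of the 11 windows, at 1 of the 4 starts of Otx2 itself, and in 7.06% of all 32851 windows of the same length. GTAAACA was found in 0 of the 11 and in 3.65% of all windows. A match is only a description of the letters, and no match says only that these letters are absent from these windows. The window with the match, on the minus strand at chr14:48665060-48665359, is printed because it is the single one among the 11, with the match (reading GGATTA on the strand of the gene) in capitals.
Otx2 window: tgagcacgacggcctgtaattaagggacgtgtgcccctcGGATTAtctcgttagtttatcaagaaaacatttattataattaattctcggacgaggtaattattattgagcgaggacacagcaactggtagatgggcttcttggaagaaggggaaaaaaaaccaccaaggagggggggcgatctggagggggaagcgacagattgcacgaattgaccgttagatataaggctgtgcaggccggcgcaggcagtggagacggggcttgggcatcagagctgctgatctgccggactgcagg

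Ttr, which encodes a carrier of thyroid hormone and retinol in the cerebrospinal fluid, moved most. In WT basal arrays 1, 2 and 3 it stood at 11.65, 12.11 and 11.81, and in arrays 4, 5 and 6 at 8.80, 9.64 and 9.17. The highest and lowest of these arrays differed 9.89-fold, and none lay between 9.64 and 11.65. The 6 mutant basal arrays lay within 1.98-fold of each other, from 11.01 to 11.99 (median 11.57), all above WT basal arrays 4, 5 and 6. After learning, WT arrays ranged from 8.46 to 10.20 (median 9.79) and mutant arrays from 8.59 to 11.65 (median 10.30). WT basal arrays 4, 5 and 6 therefore lay within the range of the WT learning arrays. Array 6 of the mutant learning group (11.65) was the only learning array to reach the range of the mutant basal group.

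The order of the group means of Ttr was mutant basal (11.53 ± 0.36, SD, n = 6), WT basal (10.53 ± 1.48), mutant learning (10.13 ± 1.03) and WT learning (9.60 ± 0.67). Neighbouring groups in this order overlapped. The limma SE and intervals of Ttr rest on 1 spread shared by the 4 groups, although the SD was 1.48 in WT basal and 0.36 in mutant basal arrays. Between genotypes at basal the difference was 0.99 (SE 0.47, 95% interval 0.03 to 1.96), not called, which here needs an adjusted p under 0.05 over all genes (limma adjusted p = 0.9997; exact two-sided permutation test over 924 assignments, p = 0.167). After learning the mutant stood 0.53 above WT (interval −0.43 to 1.49; limma adjusted p = 0.834; exact permutation p = 0.316). Single arrays moved these values: the basal difference was 0.65 without WT basal array 4, and the difference after learning was 0.23 on leaving out array 6 of the mutant or 0.30 on leaving out array 3 of WT, and was 0.84 on leaving out array 2 of the mutant. Ttr fell after learning in the mutant by 1.39 (SE 0.47, limma adjusted p = 0.0176; exact permutation p = 0.0108, without adjustment). The difference in WT was −0.93 (interval −1.89 to 0.03; limma adjusted p = 0.114; exact permutation p = 0.177), and −0.61 without WT basal array 2. The call in the mutant ended without mutant learning array 2 (adjusted p = 0.0636) and with a moderation of the spread that gives less weight to genes of extreme spread (robust, 0.0534). In WT a call appeared without WT basal array 4 or 6 (lowest adjusted p = 0.0240), and with array weights, which count arrays that depart from their group for less (0.0471).

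**Figure D1:**
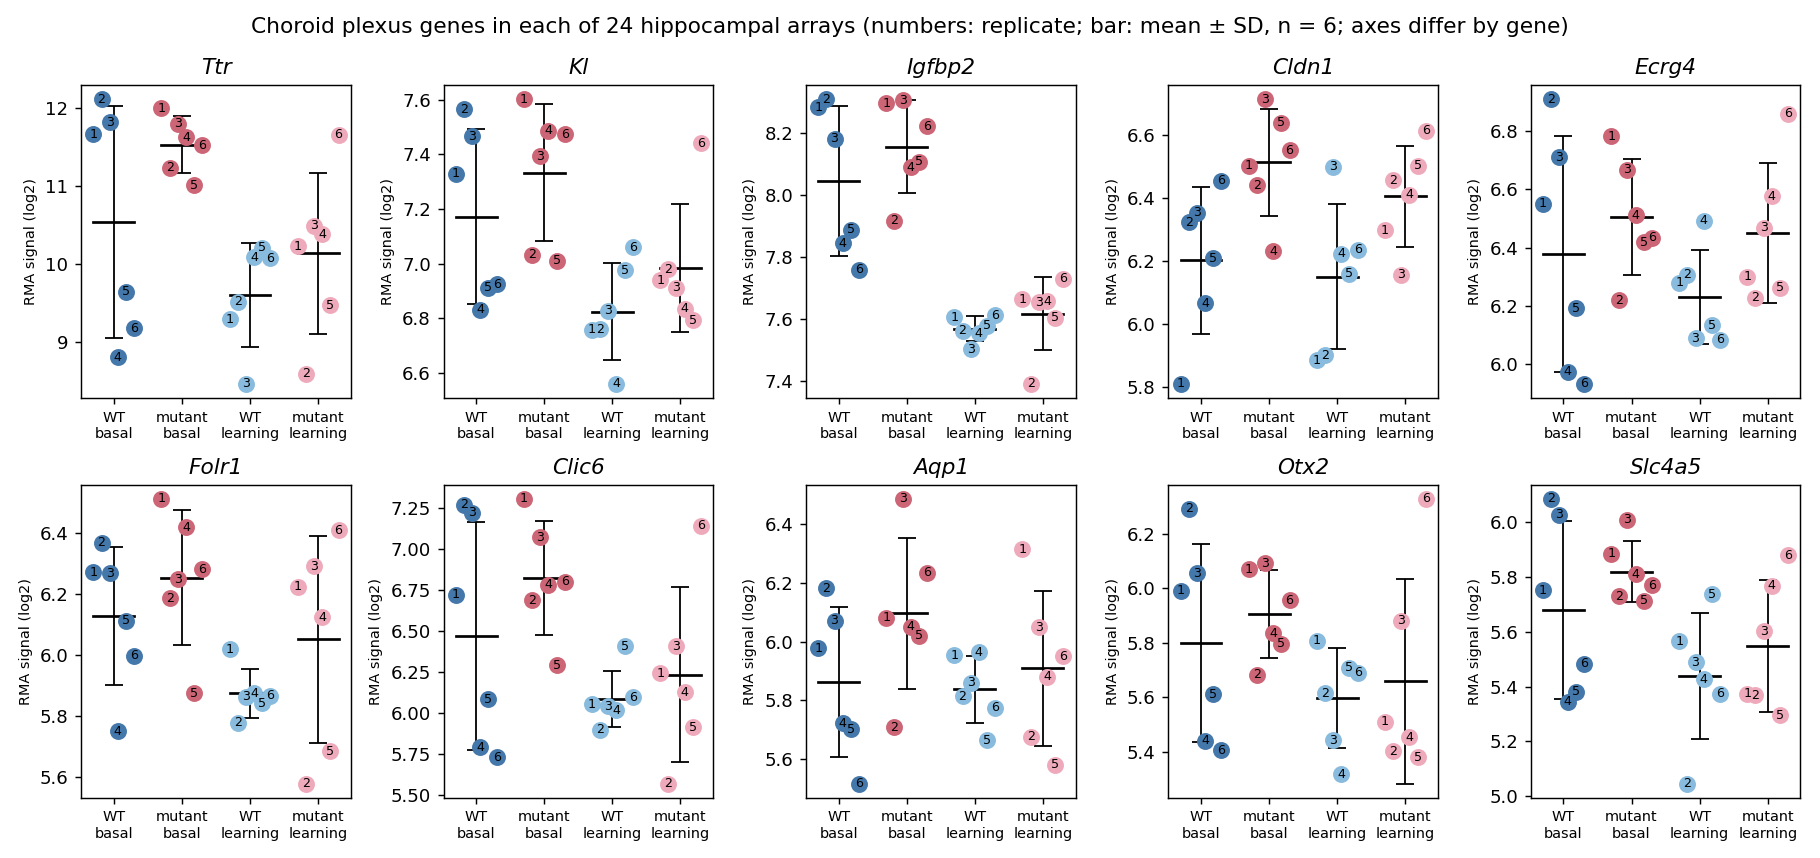
Each panel shows 1 gene, with the RMA signal (log2) of every array by group; numbers are replicate numbers and bars are mean ± SD (n = 6). For Ttr, WT basal arrays 1 to 3 (11.65 to 12.11) and 4 to 6 (8.80 to 9.64) sit apart, and Cldn1 does not share that split.

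Igfbp2 and Ecrg4 encode other secreted proteins, a carrier that binds IGFs and the precursor of the peptide augurin. Igfbp2 was between 7.76 and 8.31 (median 8.04) in WT basal arrays, 7.92 and 8.31 (8.17) in mutant basal arrays, 7.50 and 7.61 (7.57) in WT learning arrays and 7.39 and 7.73 (7.66) in mutant learning arrays. In each genotype every learning array lay below every basal array. Igfbp2 fell by 0.47 in WT (SE 0.08, limma adjusted p = 2.00e-05) and by 0.54 in the mutant (SE 0.08, limma adjusted p = 3.02e-06), calls that held whichever array was left out. Its genotype differences were 0.11 (interval −0.06 to 0.28) at basal and 0.05 (−0.12 to 0.22) after learning. Igfbp2 is also made by astrocytes and in the meninges. Ecrg4 ranged from 5.93 to 6.91 in WT basal arrays and from 6.22 to 6.78 in mutant basal arrays, against 6.08 to 6.49 and 6.23 to 6.86 after learning. All 4 groups overlapped, and the differences after learning were −0.15 in WT (interval −0.42 to 0.13) and −0.06 in the mutant (−0.33 to 0.22).

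Kl encodes klotho, a membrane protein and hormone co-receptor that is abundant in choroid plexus and kidney and is also found in hippocampal neurons. It was 6.83 to 7.57 (median 7.13) in WT basal, 7.01 to 7.60 (7.43) in mutant basal, 6.56 to 7.06 (6.79) in WT learning and 6.79 to 7.44 (6.92) in mutant learning arrays. Basal and learning arrays overlapped in both genotypes. Kl fell by 0.35 in WT (SE 0.13, limma adjusted p = 0.0269) and by 0.35 in the mutant (limma adjusted p = 0.0269). In WT the call depended on 4 arrays, being lost on leaving out basal 1, basal 2, basal 3 or learning 4 (limma adjusted p up to 0.0917). In the mutant it was lost on leaving out basal 1, basal 4, basal 6, learning 4 or learning 5 (up to 0.0765), and with array weights (0.0519). The mutant stood above WT by 0.16 in each state (interval −0.10 to 0.42 at basal).

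Clic6, a chloride channel protein of secretory epithelia, varied most after Ttr. WT basal arrays 1, 2 and 3 had 6.72, 7.27 and 7.22 and arrays 4, 5 and 6 had 5.79, 6.08 and 5.73, the same parting as in Ttr. The other groups ranged from 6.29 to 7.31 (mutant basal), 5.89 to 6.41 (WT learning) and 5.57 to 7.14 (mutant learning), with mutant learning array 6 again the highest of its group. Clic6 fell after learning in the mutant by 0.59 (SE 0.23, limma adjusted p = 0.0434). That call held in 4 of 12 runs with an array left out, those leaving out basal 2, basal 5, learning 3 or learning 6, and was lost in the rest (up to 0.128). It was also lost with array weights (0.0593) and with robust moderation (0.0922). In WT the difference was −0.39 (interval −0.86 to 0.09).

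The other transport genes varied less than Clic6. Aqp1 (a water channel), Slc4a5 (a sodium bicarbonate cotransporter) and Folr1 (a folate receptor) ranged in WT basal arrays from 5.52 to 6.18, from 5.35 to 6.09 and from 5.75 to 6.37. In mutant basal arrays they ranged from 5.71 to 6.49, from 5.71 to 6.01 and from 5.87 to 6.51. After learning the lowest and highest values were 5.66 and 5.96 in WT and 5.58 and 6.32 in the mutant for Aqp1, and 5.05 and 5.74 in WT and 5.29 and 5.88 in the mutant for Slc4a5. For Folr1 they were 5.78 and 6.02 in WT and 5.58 and 6.41 in the mutant. All groups of these genes overlapped and none of the 3 was called in any comparison. Folr1 in WT differed by −0.25 after learning (limma adjusted p = 0.0953), which became a call without WT basal array 4 (0.0299) or with the WT arrays alone in the fit (0.0266). Slc4a5 in the mutant differed by −0.27 (0.0811), called without mutant learning array 6 (0.0333) or with the mutant arrays alone (0.0380).

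Otx2 ranged from 5.41 to 6.29 in WT basal, 5.68 to 6.09 in mutant basal, 5.32 to 5.81 in WT learning and 5.38 to 6.33 in mutant learning arrays. Its differences after learning were −0.20 (interval −0.50 to 0.10) in WT and −0.25 (−0.55 to 0.05) in the mutant, the latter called by limma without mutant learning array 6 (adjusted p = 0.0222). Cldn1, a claudin of tight junctions, went another way. WT basal arrays 1 to 6 had 5.81, 6.32, 6.35, 6.07, 6.21 and 6.46, so that array 1, high in Ttr, was the lowest and array 6, low in Ttr, the highest. Mutant basal arrays ranged from 6.23 to 6.72, WT learning from 5.89 to 6.50 and mutant learning from 6.16 to 6.61. Cldn1 stood higher in the mutant by 0.31 (SE 0.11, interval 0.09 to 0.53) at basal and by 0.26 (0.04 to 0.47) after learning, and by 0.28 (SE 0.08, interval 0.13 to 0.44) over both states. None of these passed the adjustment over all genes (limma adjusted p = 0.794, 0.600 and 0.126). The last passed without WT learning array 3 (0.0445). Between states the difference was −0.05 (interval −0.27 to 0.17) in WT and −0.11 (−0.33 to 0.11) in the mutant.

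Read as a list between genotypes, all 10 genes stood higher in the mutant in both states, with 0 called by limma in either. Most of the 10 varied together from array to array, so their shared direction is not 10 separate observations. At basal 0.1% of all genes were called, the median difference of the 10 was 0.15 (range 0.11 to 0.99), and 2 of the 10 (Ttr and Cldn1) had an unadjusted p under 0.05. Over all 19938 genes the median difference was 0.01, 57.6% stood above 0 and 898 had an unadjusted limma p under 0.05. After learning 0.0752% of all genes were called, and the median of the 10 was 0.15 (0.05 to 0.53) against 0.00 over all genes. By limma 1 of the 10 had an unadjusted p under 0.05 (Cldn1), as had 1461 of all genes, and 50.2% of all genes stood above 0. Averaged over both states, 0.391% of genes and 0 of the 10 were called, and the median of the 10 was 0.16. By limma 2 of the 10 had an unadjusted p under 0.05, as had 1766 of all genes, and 54.9% of all genes stood above 0. The mean of the 10 genes ranged from 6.36 to 7.34 in WT basal and 6.88 to 7.30 in mutant basal arrays, so the groups overlapped. Both medians moved with single arrays: the basal one was 0.084 without WT basal array 4 and 0.24 without WT basal array 2, and the one after learning was 0.065 without mutant learning array 6.

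Between states, all 10 genes stood lower after learning in both genotypes. Over all genes 55.8% stood higher after learning in WT and 56.3% in the mutant. As most of the 10 varied together from array to array, their shared direction is not 10 separate observations. In WT 2 of the 10 fell by limma (Kl and Igfbp2), where 43.3% of all genes were called, 18.2% lower and 25.1% higher. The share of the 10 is thus near the background. In the mutant 4 of the 10 fell (Ttr, Kl, Igfbp2 and Clic6), where 41.3% of all genes were called, 18.7% lower and 22.6% higher. The median difference of the 10 was −0.25 in WT and −0.26 in the mutant, against 0.03 over all genes in each. The number called ranged from 1 to 4 in WT and from 2 to 6 in the mutant as single arrays were left out, and was 2 in the mutant with array weights or robust moderation. In the test of whether the genotype difference changed with state (the limma interaction) 0 of the 10 were called, as were 0% of all genes, and 0 of the 10 and 510 of all genes had an unadjusted p under 0.05. The widest interval was that of Ttr (−0.46, from −1.83 to 0.90). The group means of 7 of the genes had the order mutant basal, WT basal, mutant learning, WT learning; in Cldn1, Ecrg4 and Aqp1 the middle 2 were exchanged. The comparisons share arrays: WT basal enters both the genotype comparison at basal and the learning comparison in WT.

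**Figure D2:**
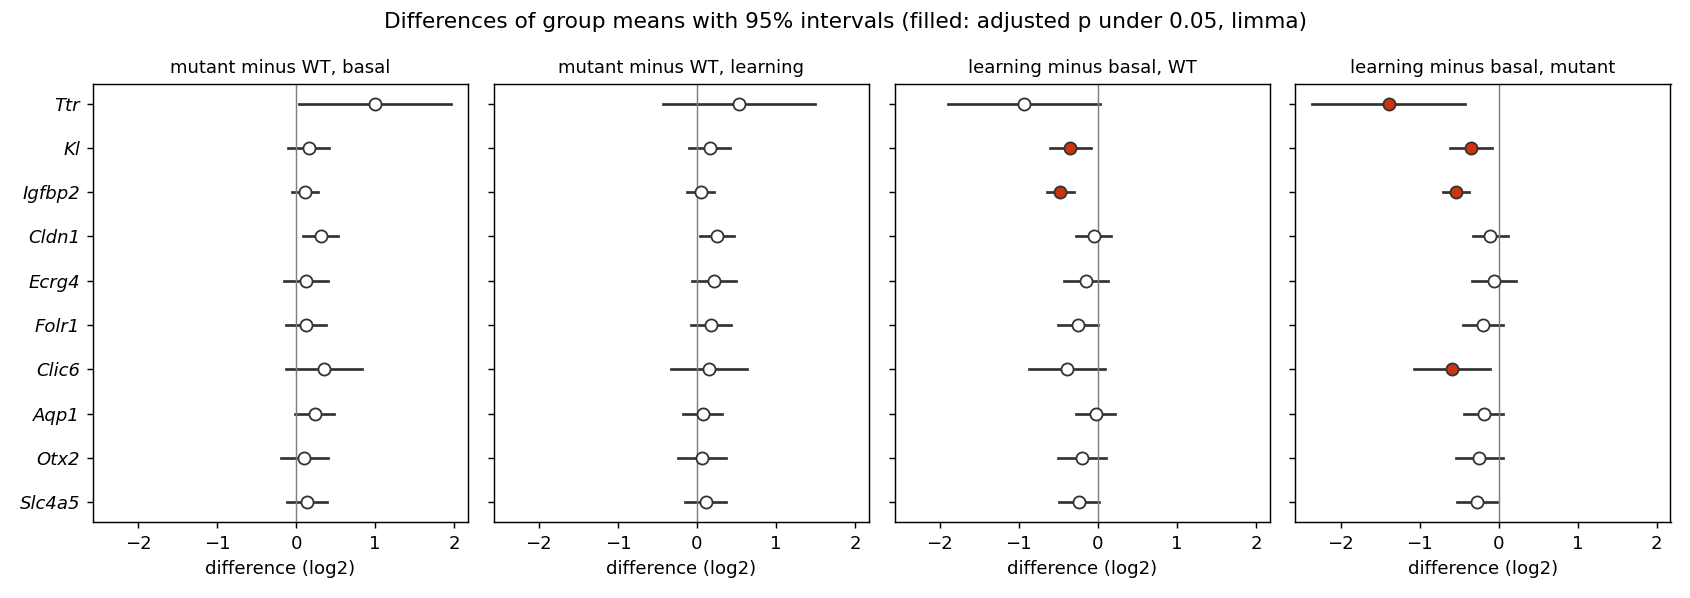
Points are differences of group means (log2) with 95% intervals from limma in 4 comparisons, filled where the adjusted p is under 0.05. All 10 points lie right of 0 in both genotype comparisons and left of 0 in both learning comparisons, and the interval of Ttr is the widest in each.

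With the 4 groups pooled, each of the 10 genes varied more between arrays of the same group than the median gene did. The SD of Ttr within groups, pooled over the 4, was 0.98, the 4th largest of 19938 genes, and in the WT basal group (1.48) it was the largest of all. Clic6 (pooled SD 0.48) ranked 34th. For all 10 the median pooled SD was 0.25, against 0.12 over all genes, and Igfbp2 had the smallest (0.15, larger than 76.1% of genes). The spread of the list depended on the group. Its median SD was 0.32 in WT basal, 0.21 in mutant basal, 0.17 in WT learning and 0.25 in mutant learning arrays, while the median over all genes lay between 0.10 and 0.13. In WT learning arrays some of the 10 varied little: the SD of Igfbp2 (0.040) was larger than that of 2.62% of genes, that of Folr1 (0.079) than 22.7% and that of Aqp1 (0.11) than 48.1%. These are descriptions, and the difference in spread between groups was not tested.

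Of the 10 genes, 9 moved up and down together from array to array, and Cldn1 did not. With group means removed, each of the 9 followed the mean of the other members over the 24 arrays, from r = 0.62 for Aqp1 (Spearman's rho = 0.64) to r = 0.96 for Clic6 (rho = 0.96), with Ttr at 0.89 (rho = 0.85). For Cldn1 r was −0.02 (rho = 0.03). All points share the libraries of the 24 arrays, so these values describe likeness and carry no p. Without the WT basal arrays, whose Ttr values parted as described, r over 18 arrays was 0.42 for Aqp1, 0.65 to 0.79 for Ttr, Kl, Igfbp2, Ecrg4, Folr1, Otx2 and Slc4a5, and 0.93 for Clic6. Over the 45 pairs of genes the median r was 0.94 in WT basal, 0.74 in mutant basal and 0.69 in mutant learning arrays (6 arrays each). In WT learning arrays, where the list varied least, it was 0.11 (from −0.90 to 0.83). There Aqp1 (r = −0.50) and Ecrg4 (−0.24), as well as Cldn1 (−0.29), ran against the mean of the other members. The rest had r from 0.10 (Folr1) to 0.68 (Clic6), so the genes did not all move together in that group. WT basal arrays 1, 2 and 3 were the 3 highest of their group for 9 of the 10 genes (all but Cldn1), a pattern found in 5.7% of all genes. Mutant learning array 6 was the highest of its group for 9 of the 10 (all but Aqp1), against 15.8% of all genes. Mutant learning array 2 was the lowest of its group for 5 of the 10, against 16.3% of all genes. These arrays were picked out after their values were seen.

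**Figure D3:**
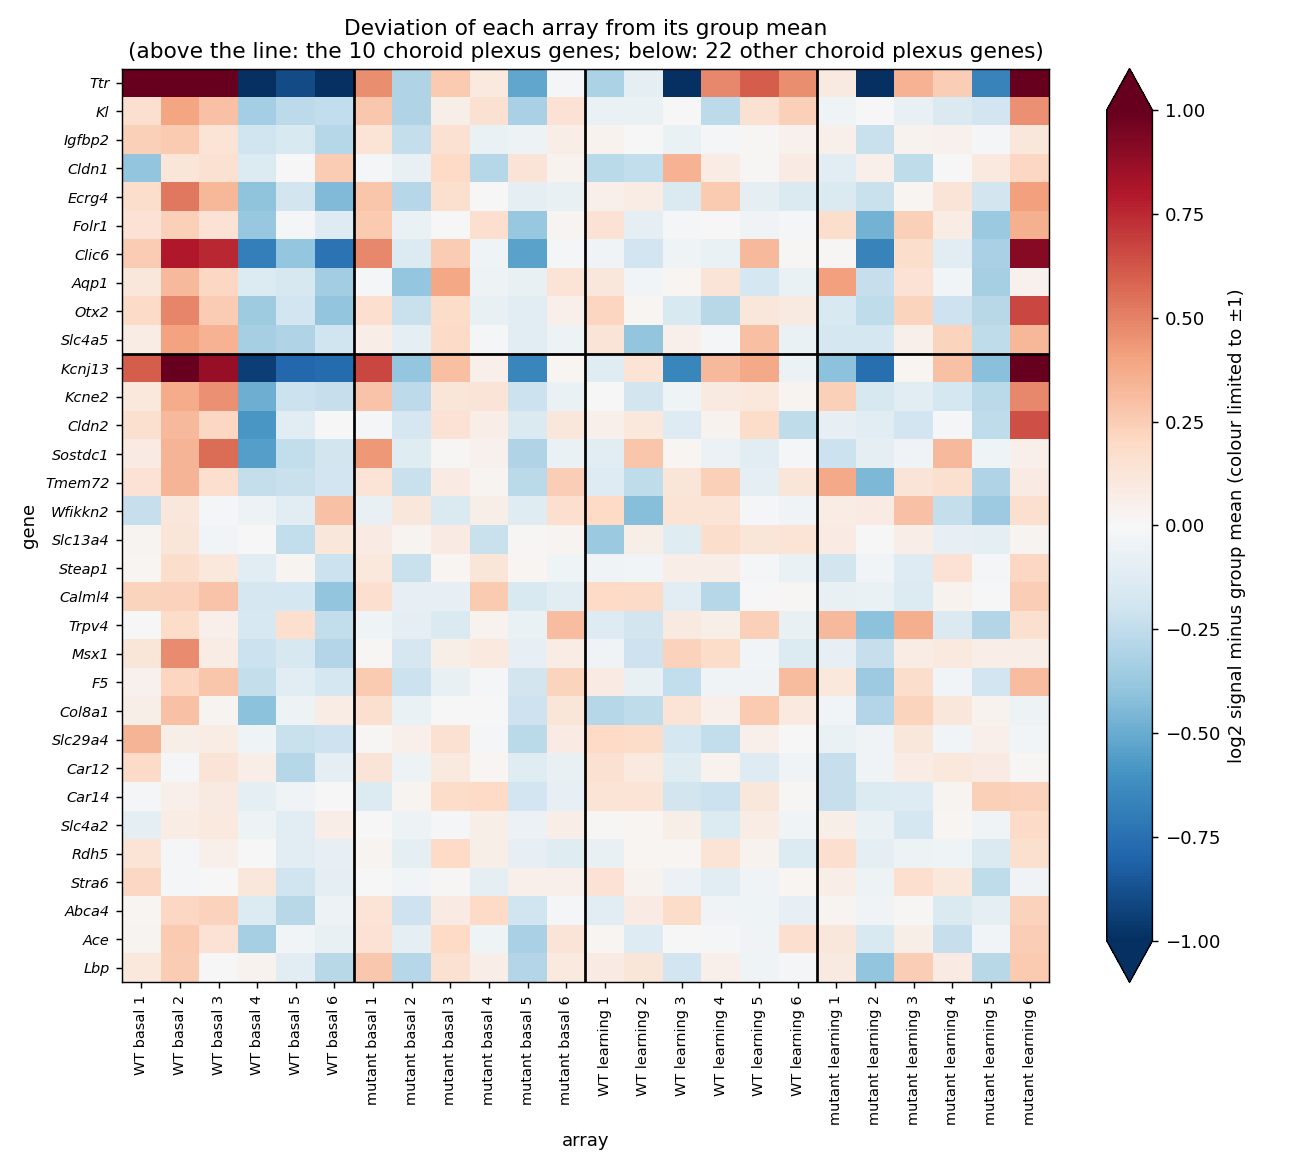
Colours give the log2 signal of each array minus the mean of its group for the 10 genes (above the line) and 22 other choroid plexus genes (below), with colour limited to 1 on either side. WT basal arrays 1 to 3 are the 3 highest of their group in 9 of the 10 upper rows (not Cldn1) and in 11 of the 22 lower rows, and mutant learning array 6 is the highest of its group in 9 upper and 10 lower rows.

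The amplitudes differed between genes. For each unit of Ttr (log2, group means removed), Clic6 moved by 0.45, Otx2 by 0.24, Ecrg4 by 0.23, Kl by 0.19, Slc4a5 and Folr1 by 0.18, Aqp1 by 0.14, Igfbp2 by 0.13 and Cldn1 by −0.02. Signal levels differed too: by mean level Ttr stood above 96.1% of genes. Slc4a5, Otx2, Aqp1 and Folr1 stood above 28.3% to 36.9%, and Cldn1, Ecrg4, Clic6, Kl and Igfbp2 above 41.2% to 64.5%. Whether the level of a gene affected its amplitude was not tested. When Ttr was entered as a covariate, an alternative chosen after the data were seen, Igfbp2 was still lower after learning by 0.35 in each genotype (limma adjusted p = 1.18e-05 in WT and 3.23e-05 in the mutant). Clic6, which without the covariate was called lower in the mutant (by 0.59), then stood 0.03 higher after learning in each genotype, uncalled, and Kl by −0.17 (adjusted p = 0.173) and −0.09 (0.561). Ecrg4 was called higher after learning in the mutant (0.27, limma adjusted p = 0.0257), where it had differed by −0.06 without the covariate. Ttr itself fell by 1.39 in that comparison, so the covariate differs between the states. Fits with Ttr therefore cannot tell state and Ttr apart. Between genotypes at basal, Cldn1 differed by 0.33 with the covariate (adjusted p = 0.874), and the other 8 by −0.13 (Otx2) to 0.10 (Aqp1).

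Among genes outside the list, those most like its mean across arrays included 5 from the separate list of choroid plexus epithelium genes (Kcnj13, Kcne2, F5, Ace and Cldn2). By group-centred Pearson r over 24 arrays the closest were the potassium channel genes Kcnj13 (r = 0.94, rho = 0.92) and Kcne2 (r = 0.90, rho = 0.85), whose products sit in the apical membrane of the epithelium. Next came Drc7, a gene of the motile cilium (0.84), F5, coagulation factor V (0.82), Rbm47, an RNA-binding protein of epithelia (0.81), Ace, the angiotensin-converting enzyme (0.78), and Cldn2, a claudin of leaky epithelia (0.77). Sulf1 (0.74), Igfbp7 (0.74) and Iba57 (0.73) completed the 10. Without the WT basal arrays the 10 kept r from 0.47 (Sulf1) to 0.90 (Kcnj13). Of 19928 genes outside the list, 13 had r above 0.7, and the median r was 0.01. Kcnj13 stood at 6.44 in WT basal, 7.07 in mutant basal, 6.07 in WT learning and 6.47 in mutant learning (group means), the same order as Ttr in its highest and lowest group.

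Of 25 other choroid plexus epithelium genes 22 were measured. Their median r with the list was 0.64, and 7 had r above 0.7. By limma 0 of 22 were called between genotypes in either state. At basal 19 of the 22 stood higher in the mutant (median 0.14), against 57.6% of all genes. In the learning state 16 of the 22 did (median 0.09), against 50.2% of all genes. As many of the 22 varied with the list from array to array, these are not 22 separate observations. After learning 7 of 22 fell in WT, where 18.2% of all genes did, and 11 of 22 in the mutant, where 18.7% did, and 0 rose in either. Among those that fell in both were Slc29a4, a monoamine transporter (by 0.57 in WT, limma adjusted p = 1.44e-06), Slc4a2, an anion exchanger (by 0.36, adjusted p = 6.79e-06), and Stra6, a retinol transporter (by 0.40, adjusted p = 1.77e-05). Their r with the list was 0.40, 0.43 and 0.23, below the median of 0.64. The genes closest to the list by r, Kcnj13 and Kcne2, were not called (limma adjusted p = 0.382 and 0.388 in WT, 0.139 and 0.293 in the mutant).

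Lists for other cells, and for genes the choroid plexus shares with them, had median r values between −0.29 and 0.20. Choroid plexus genes shared with other brain cells (7 of 9 measured) had a median r of 0.20, with Trpm3 highest (0.42). For ependymal cells, which line the ventricles, the 15 markers had a median r of −0.22 (−0.39 for Rsph1 to 0.39 for Foxj1), and the mean of the markers stayed between 6.00 and 6.31 in all 24 arrays. The 14 markers of leptomeninges and fibroblasts had a median of −0.06, with Igf2 highest (0.51), and a mean between 6.82 and 7.08. The 6 endothelial markers measured had a median of −0.29 (Plvap, of leaky capillaries, 0.18), and the 2 blood markers 0.01. Between genotypes 6 of the 6 endothelial markers stood higher in the mutant at basal (median 0.11) and 2 of 6 after learning (median −0.06), with 0 called. The 6 habenula markers had a median of −0.02 (Pou4f1 0.52), the 10 thalamus markers −0.19 and the 12 hippocampal neuron markers 0.15 (Fibcd1 0.29). After learning, 7 of 15 ependymal markers rose and 2 fell by limma in WT (Dynlrb2 rose by 0.56, adjusted p = 5.07e-07), and 5 rose and 1 fell in the mutant. Of 14 leptomeningeal markers 6 fell and 2 rose in WT, and 9 fell and 2 rose in the mutant. Of 6 endothelial markers 2 fell in WT and 3 in the mutant, and 0 rose: Cldn5 fell by 0.46 (limma adjusted p = 8.39e-07) and 0.65 (1.61e-09), Flt1 by 0.13 and 0.27, and Pecam1 in the mutant by 0.24. Over all genes 25.1% rose and 18.2% fell in WT, and 22.6% rose and 18.7% fell in the mutant.

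**Figure D4:**
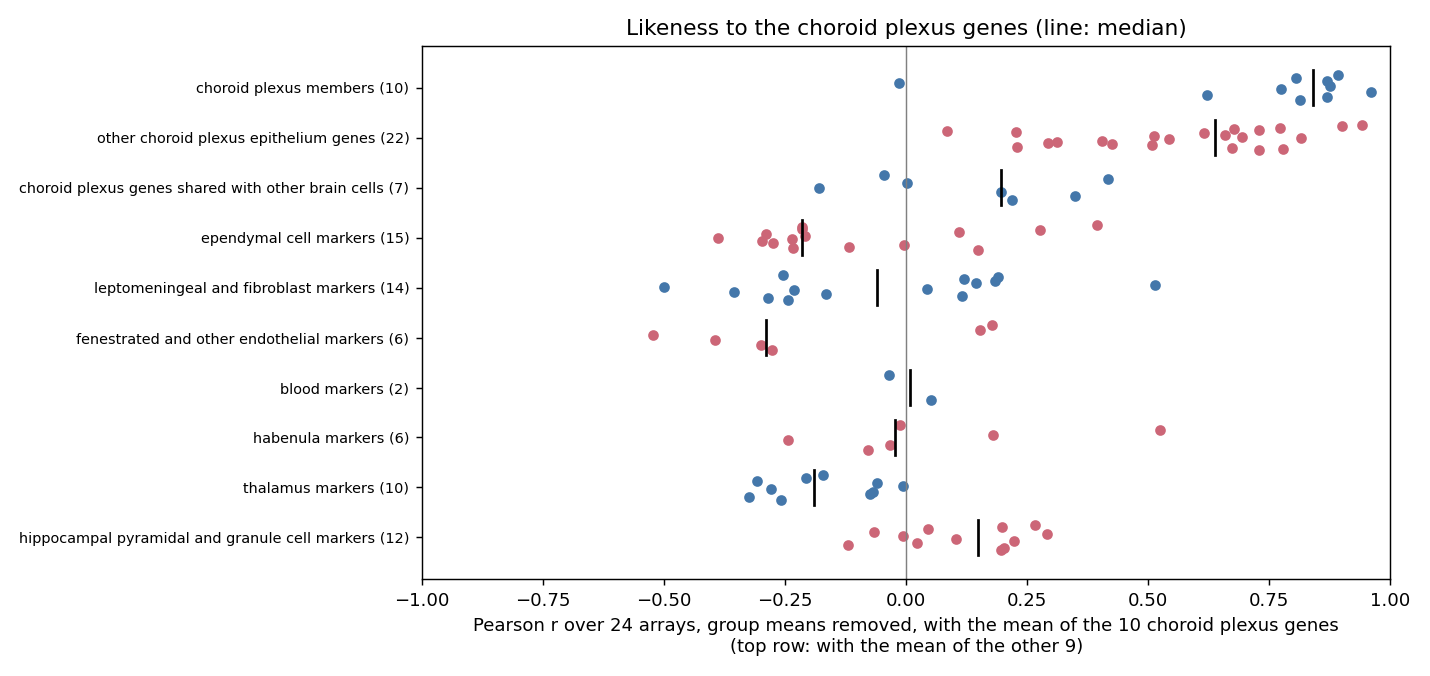
Each point is 1 gene at its Pearson r over 24 arrays, with group means removed, against the mean of the 10 choroid plexus genes (for the top row, against the mean of the other 9); rows are marker lists and lines are medians. The choroid plexus rows have medians of 0.84 and 0.64, and the other rows lie between −0.29 and 0.20.

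With the mean of the 10 genes as a covariate, fewer other genes were called. The count for mutant against WT at basal went from 20 to 14 (13 of them shared), after learning from 15 to 13 (13 shared), and over both states from 78 to 43 (41 shared). In WT after learning it went from 8634 to 7862 (7591 shared) and in the mutant from 8227 to 7159 (6845 shared). The covariate itself differs between groups. Whether these calls rest on the amount of choroid plexus in a sample was not tested.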

How the data were processed

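The authors deposited log2 expression values from Affymetrix arrays, 1 column per array, made with RMA per the submitters' processing notes; RMA corrects background, equalises the quantiles of arrays and averages the probes of a transcript cluster. Neither the RMA version nor the chip definition is named in the labels or the file. Quantile normalization sets levels relative to the whole array, and array medians over all probes lay between 6.16 and 6.30. Of 35511 probes, 21789 carry 1 symbol; for the 999 genes with several such probes the one of highest mean was used. Differences came from limma 3.58.1 in R 4.3.3 (a mean per group over 24 arrays, 20 residual degrees of freedom, eBayes with trend, Benjamini-Hochberg over 19938 genes, called at adjusted p under 0.05), tested on simulated data. The members, lists and tests were chosen with earlier results of these data known. Named genes are the members, Foxo6, the 10 genes most and the 5 least like the members' mean, and, of each other list, called genes of smallest p or those of highest r; genes named for an extreme r within a list were chosen after their values were seen. Lists are described by counts and medians. Alternatives were centring, smaller fits, array weights, a filter on dim genes, robust moderation, replicate block, left-out arrays and covariates. Replicate numbers were not treated as pairs.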

Additional observations from a re-analysis of the deposited data

Results flagged for a closer look

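In 44 sets of 6 arrays (the 10 genes and their mean in 4 groups) 1 array stood far from the rest in 2, and about 1 in 20 sets is picked out by chance. Kl in mutant learning array 6 was 7.44, with the nearest array of its group at 6.98. Igfbp2 in mutant learning array 2 was 7.39, with the nearest at 7.61. Array 6 was also the highest of its group for Ttr (11.65), and array 2 the lowest for Ttr (8.59).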

How the results depend on the processing

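Among the 10 genes, 0 were called between genotypes under any setting, except 1 (Cldn1, both states averaged) when WT learning array 3 was left out, so that this count ranged from 0 to 1. After learning, the number called lower ranged from 1 to 4 in WT and from 2 to 6 in the mutant as arrays were left out. In the mutant it was 2 with array weights and 2 with robust moderation. With Ttr as a covariate 2 were called in the mutant, Igfbp2 lower and Ecrg4 higher. In WT 1 was called with that covariate, Igfbp2, lower. The median difference of the list after learning was −0.54 in the mutant and −0.47 in WT when genes below the median level were left out, since only Ttr, Kl and Igfbp2 then remained. Genes called in all for genotype were 11 at basal and 7 after learning with only the groups compared in the fit, 51 and 9 with array weights, and 43 for both states with the mean of the 10 genes as a covariate. Leaving out arrays gave 6 to 26 at basal and 8 to 16 after learning. Causes were not tested.

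With Ttr as a covariate, which itself differed between the groups, many differences changed sign. The fall of Clic6 after learning in the mutant, called without the covariate, turned to an uncalled difference above 0, and Ecrg4 in the mutant, uncalled without it, was called higher; the others were uncalled both ways. Mutant minus WT at basal became −0.088 for Clic6, −0.10 for Ecrg4, −0.055 for Folr1, −0.021 for Igfbp2, −0.025 for Kl, −0.13 for Otx2 and −0.042 for Slc4a5. After learning it became −0.00057 for Aqp1, −0.087 for Clic6, −0.023 for Igfbp2 and −0.064 for Otx2, and over both states −0.088 for Clic6, −0.0046 for Ecrg4, −0.022 for Igfbp2, −0.097 for Otx2 and −0.016 for Slc4a5. Learning minus basal became 0.10 for Aqp1, 0.029 for Clic6, 0.069 for Ecrg4 and 0.020 for Otx2 in WT, and 0.029 for Clic6, 0.27 for Ecrg4, 0.052 for Folr1 and 0.086 for Otx2 in the mutant. The interaction became 0.00071 for Clic6, 0.085 for Kl, 0.067 for Otx2 and 0.053 for Slc4a5. For Kl it was 0.0038 with each array centred on its median and 0.021 with array weights, and for Slc4a5 0.0030 with array weights.

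Leaving out arrays changed the sign of these uncalled differences: Aqp1 after learning in WT (−0.093 to 0.040) and between genotypes after learning (−0.010 to 0.14), Cldn1 after learning in WT (−0.13 to 0.0010), Clic6 (−0.033 to 0.28) and Otx2 (−0.071 to 0.12) between genotypes after learning. The interaction ranged from −0.11 to 0.024 for Cldn1, from −0.016 to 0.18 for Ecrg4, from −0.024 to 0.15 for Folr1, from −0.094 to 0.066 for Kl, from −0.18 to 0.035 for Otx2 and from −0.11 to 0.035 for Slc4a5.

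Replicate numbers share no stated animal or day: of 36 pairs of same-numbered arrays, 7 had deviations correlated above 0.1 (median −0.01), and 3 of 24 arrays correlated best with their own number. With the replicate block the genotype calls were 14 at basal, 11 after learning and 62 for both states, and no call among the 10 genes changed. Other probes of a gene were not run as an alternative, since each of the 10 has 1 probe. Precision is limited by 6 arrays a group.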

Other observations

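Listed here are the genes that varied most against the choroid plexus genes from array to array (group-centred Pearson r over 24 arrays). The lowest were Ell2, an elongation factor of RNA polymerase II (r = −0.79), P2ry10b (−0.74) and Tram1l1 (−0.73). Next, with a clone-named symbol passed over, came Arsk, a sulfatase (−0.71), and Sptlc1, a subunit of the enzyme that starts sphingolipid synthesis (−0.70). Of the genes outside the list, 6 had r below −0.7. Without the WT basal arrays r was −0.68 for Ell2, −0.79 for P2ry10b, −0.59 for Tram1l1, −0.67 for Arsk and −0.52 for Sptlc1. Sptlc1 was 8.98 in WT basal and 9.10 in WT learning arrays (group means), and Ell2 7.73 and 7.67. These are values with no test.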
